A study of Mus musculus with 4 samples.

Results

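Genes flanking the Hoxd cluster were Evx2, Mtx2, Lnp, Atf2, Chn1, Chrna1, Wipf1, Hnrnpa3 and Agps, which lie on both sides of Hoxd on mouse chromosome 2. They were found by symbol in the raw count table, where Lnp is the older name of Lnpk, and they make up 9 of its 37620 genes. The study compared MUT_CTCF with WT_CTCF mouse embryonic stem cells (mESCs), with 2 RNA-seq libraries of each line, to ask whether losing the O-GlcNAc site of CTCF alters gene expression. Hoxd8 and Hoxd9 were among its example genes, shown as higher in MUT_CTCF cells where enhancer-promoter contacts and CTCF binding had strengthened. That evidence also drew on Hi-C and CTCF ChIP-seq. The neighbours described here lie in the same stretch of chromosome. Both lines came from CTCF-EGFP-AID mESCs, whose own tagged CTCF is degraded by 0.5 mM auxin, and both carried a vector for exogenous CTCF, either wild-type or with the T668A change that removes the modified threonine. The cells were grown on gelatin with serum and LIF, and auxin was given for 48 h to the lines, although the hours for the RNA libraries are not named. Each line was picked as a clone with exogenous CTCF near the endogenous level, so an effect of T668A and a difference between clones cannot be told apart.

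Hox genes encode homeobox transcription factors that pattern the body axis and the limbs, and the Hoxd cluster is flanked on either side by long stretches with few coding genes that hold limb enhancers. CTCF binds within and around the cluster and, with cohesin, shapes the chromatin loops that connect such enhancers with promoters. Evx2 and Lnp are known to share limb enhancers with the posterior Hoxd genes, while Mtx2 is the nearest coding gene beyond Hoxd1. The genes farther out have unrelated roles and are known for expression in many tissues or in muscle, neurons and blood cells.

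In the mm9 annotation of chromosome 2 the 9 genes span 2.5 Mb, from base 73267667 to base 75769407. On the Hoxd13 side lie Wipf1 (73267667 to 73367791, 1139 kb from the cluster), Chrna1 (73401272 to 73418395, 1088 kb), Chn1 (73448717 to 73613403, 893 kb), Atf2 (73654566 to 73730696, 775.7 kb), Lnp (74358348 to 74417492, 88.9 kb) and Evx2 (74491049 to 74497918, 8.45 kb). All 6 are on the minus strand. On the Hoxd1 side lie Mtx2 (74663860 to 74716488, 60.7 kb), Hnrnpa3 (75497318 to 75507464, 894 kb) and Agps (75670234 to 75769407, 1067 kb), all 3 on the plus strand. Gaps of 628 kb between Atf2 and Lnp and of 781 kb between Mtx2 and Hnrnpa3 separate the near from the far neighbours.

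Promoters are shown for 4 of these genes, chosen because they cover the highest level, the nearest gene beyond Hoxd1, a low level and a gene without a read. Each is the RefSeq window of 300 bases on GRCm38.p6, from 250 bases before to 50 after the gene's start, written along the gene's strand with CpG dinucleotides in capitals. These GRCm38.p6 positions are not on the scale of the mm9 positions above.
Hnrnpa3, chr2:75659009-75659308, plus strand: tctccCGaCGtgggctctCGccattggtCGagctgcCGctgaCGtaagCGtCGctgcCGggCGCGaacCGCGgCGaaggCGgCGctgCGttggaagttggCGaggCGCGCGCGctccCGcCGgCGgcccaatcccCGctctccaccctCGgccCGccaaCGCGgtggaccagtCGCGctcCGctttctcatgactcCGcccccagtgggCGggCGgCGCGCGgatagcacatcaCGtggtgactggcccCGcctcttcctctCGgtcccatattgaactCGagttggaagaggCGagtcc
Mtx2, chr2:74825562-74825861, plus strand: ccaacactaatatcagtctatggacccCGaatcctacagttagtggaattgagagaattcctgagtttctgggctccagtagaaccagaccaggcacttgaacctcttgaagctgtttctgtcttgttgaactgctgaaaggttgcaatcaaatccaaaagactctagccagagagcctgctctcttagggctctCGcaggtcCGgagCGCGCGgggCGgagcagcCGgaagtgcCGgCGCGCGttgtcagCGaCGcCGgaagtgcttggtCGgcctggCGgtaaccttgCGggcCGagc
Chrna1, chr2:73580289-73580588, minus strand: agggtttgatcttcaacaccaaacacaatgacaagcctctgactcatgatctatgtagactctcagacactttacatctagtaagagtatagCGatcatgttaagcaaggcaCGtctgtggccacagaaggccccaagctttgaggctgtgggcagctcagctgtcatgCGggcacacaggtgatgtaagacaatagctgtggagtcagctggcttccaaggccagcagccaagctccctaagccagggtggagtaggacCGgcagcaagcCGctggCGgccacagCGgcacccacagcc
Evx2, chr2:74659508-74659807, minus strand: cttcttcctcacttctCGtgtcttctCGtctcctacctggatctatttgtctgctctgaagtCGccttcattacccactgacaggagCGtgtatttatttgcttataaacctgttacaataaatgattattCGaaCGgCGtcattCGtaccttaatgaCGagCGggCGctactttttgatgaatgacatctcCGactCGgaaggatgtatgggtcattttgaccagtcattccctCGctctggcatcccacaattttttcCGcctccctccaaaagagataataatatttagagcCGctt

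All 9 genes matched the RefSeq table, with 12 windows since Chn1 and Wipf1 have several starts. The window of Hnrnpa3 held 44 CpG dinucleotides, that of Mtx2 19, that of Evx2 16 and that of Chrna1 7. Over the 32851 windows of the table the median was 7, with quartiles of 3 and 20. The windows of Lnp, Atf2 and Agps held 25, 28 and 32. Those of Chn1 held 5 and 43, and those of Wipf1 held 1, 4 and 37. Both strands were also searched for CCCTC, the letters in the full name of CTCF. It was found in 9 of the 12 windows and in 66% of all windows. The windows of Mtx2, Lnp and Chrna1 lacked it, while every window of Chn1 and Wipf1 held it, so the 9 windows are not 9 genes. A match describes the letters and not a bound site.

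Total counts per library ran from 40524694 to 40977464. Markers of embryonic stem cells were high in every library, with means between 21600 and 58860 normalized counts (counts scaled to the mean library) for 6 genes that include Pou5f1 and Nanog. Of these 6, 1 was called, Sox2, slightly higher in MUT_CTCF cells (log2 fold change 0.095, edgeR quasi-likelihood adjusted p = 0.0358, DESeq2 adjusted p = 0.0319). Ctcf, read without separating endogenous from exogenous transcripts, had 18485 normalized counts in WT_CTCF and 19058 in MUT_CTCF mESCs. Replicates differed by more than counting noise (chi-square over its degrees of freedom, 3.65 for WT_CTCF and 4.33 for MUT_CTCF), so neither pair was a library deposited again. Marker sums were 854.4 to 885.1 in WT_CTCF and 947.8 to 1018 in MUT_CTCF cells for feeder fibroblasts, and 395.9 to 404.6 and 444.1 to 666.2 for primitive endoderm, with 0 markers called in either list. Thy1 made up most of the feeder sum, and Lum had 0 counts. In these bulk samples fewer expressing cells and less RNA per cell cannot be told apart.

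The flanking genes covered a wide range of levels and none was called as changed. Of the 9 genes, 8 passed the filter on low counts and were tested, and Evx2 was not, because it had 0 counts. In edgeR's quasi-likelihood (QL) test with Benjamini-Hochberg adjustment, 0 of the 8 were called below an adjusted p of 0.05, against 3.17% of all 16264 genes tested. DESeq2 also called 0 of the 7 members to which it gave an adjusted p. At an unadjusted p under 0.05, 3 of the 8 passed in edgeR (Chn1, Atf2 and Hnrnpa3) against 15.3% of all genes, and 0 in DESeq2. Leaving out WT_CTCF replicate 1 or MUT_CTCF replicate 2 brought that count to 0, and it was 1 with library size only or with no filter. The study called genes by a fold of more than 2 and an unadjusted p below 0.05, which 0 of the 8 met against 1.30% of all genes. The median log2 fold change of the 8 was -0.039, beside 0.0035 over all genes tested, with 3 of 8 above 0. With 2 against 2 libraries the smallest two-sided p of an exact permutation test is 0.333, so the tests draw on a spread estimated over many genes.

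**Figure D1:**
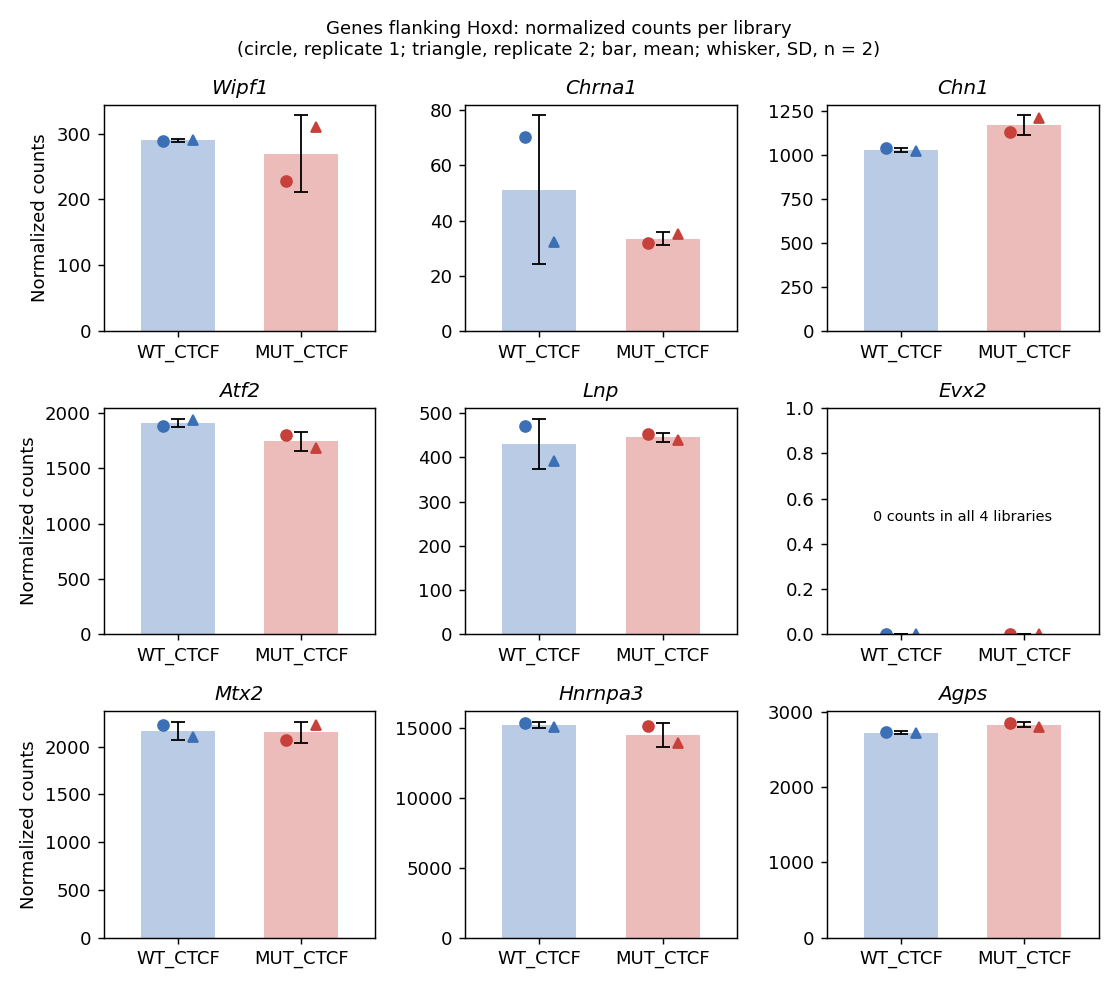
Normalized counts (vertical axis, linear from 0) of the 9 flanking genes in WT_CTCF (blue) and MUT_CTCF (red) mESCs; circles are replicate 1, triangles replicate 2, bars the mean and whiskers the SD (n = 2). The libraries of the 2 lines separate for Chn1, Atf2 and Agps, and Evx2 sits at 0 in all 4 libraries.

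Between genes, levels were compared as CPM per kb of exon, where CPM is the count scaled to the normalized library total. Hnrnpa3 stood highest with 69.1 ± 0.922 in WT_CTCF and 65.8 ± 3.93 in MUT_CTCF mESCs (SD, n = 2), above 93.9% of the tested genes. On this scale Mtx2 followed with 14.4 ± 0.607 and 14.3 ± 0.729, and Agps with 7.97 ± 0.041 and 8.27 ± 0.107 (SD, n = 2). Chn1, with 4.89 ± 0.058 and 5.55 ± 0.268, and Atf2, with 5.25 ± 0.100 and 4.79 ± 0.232 (SD, n = 2), overlapped over the 4 libraries and could not be ordered. So did Lnp, with 1.15 ± 0.151 and 1.19 ± 0.026, and Wipf1, with 1.20 ± 0.0065 and 1.12 ± 0.242 (SD, n = 2). Chrna1 was lowest of the detected genes, with 0.286 ± 0.150 and 0.187 ± 0.014 (SD, n = 2), above 10.7% of the tested genes. The other neighbours in this order did not overlap in any library. Level did not follow distance from Hoxd, since Hnrnpa3 at 894 kb was highest and Evx2 at 8.45 kb had no read.

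**Figure D2:**
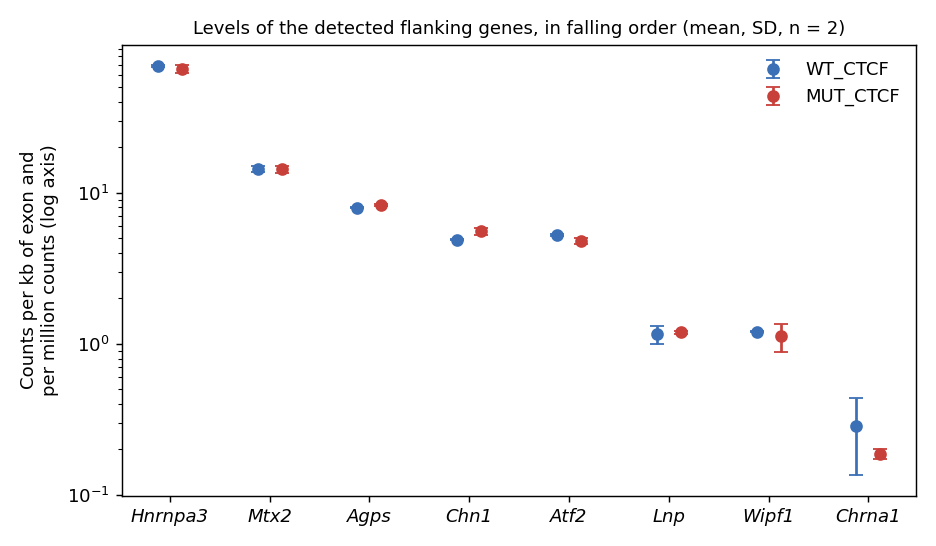
Levels of the 8 detected flanking genes in falling order, in CPM per kb of exon on a log axis; points are means and whiskers SD (n = 2) for WT_CTCF (blue) and MUT_CTCF (red) mESCs. Hnrnpa3 lies near 69.1, and Chrna1 near 0.286 in WT_CTCF; Evx2, at 0, cannot be drawn on a log axis.

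Evx2, a homeobox gene related to Drosophila even-skipped and active in posterior tissues and limb buds, had 0 counts in each of the 4 libraries. At this depth a count of 0 allows up to 3 counts per library, or 0.0165 CPM per kb at most, and this limit covers counting error only. A change in Evx2 below this limit could not be seen. Its paralog Evx1 had 19 and 17 counts in WT_CTCF and 19 and 12 in MUT_CTCF cells. The values of Evx1 overlap between the lines, and its log2 fold change was -0.22 (standard error 0.668, edgeR QL adjusted p = 0.928). Of the 5 markers of posterior mesoderm and limb, Cdx1 was called (log2 fold change -0.26), and made up most of their summed level, which was 4407 to 4675 normalized counts in WT_CTCF and 3719 to 3945 in MUT_CTCF cells. The other 4 were not called and had log2 fold changes from -1.92 to 0.52. Of 7 genes listed with Evx2, namely Evx1, the homeobox gene Gbx2 and posterior Hox genes of other clusters, 5 were tested and 0 were called.

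Inside the cluster, Hoxd13, the Hoxd gene nearest to Evx2, had 65 and 83 counts in WT_CTCF and 93 and 67 in MUT_CTCF cells. Hoxd1, the Hoxd gene nearest to Mtx2, had 29 and 14 counts and 34 and 7 counts. Both genes overlapped between the lines. Of the 9 Hoxd genes, 4 were tested and 0 were called in edgeR's QL test, beside 3.17% of all tested genes. At an unadjusted p under 0.05 there were 0, beside 15.3% of all tested genes. Hoxd8 had 27 and 44 counts in WT_CTCF against 51 and 49 in MUT_CTCF cells, without overlap and 1.40 times as high in MUT_CTCF, but was not called (edgeR QL adjusted p = 0.664). Hoxd9 had 50 and 28 counts against 60 and 38, overlapping and 1.25 times as high (edgeR QL adjusted p = 0.805). Hoxd12 and Hoxd11 had at most 7 counts in a library and Hoxd10 had 0. Hoxd3 had 11 counts in MUT_CTCF replicate 1 and 0 in the other libraries, and Hoxd4, which shares 1725 exon bases with Hoxd3, had 0 in all 4.

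Lnp, which encodes the lunapark protein of three-way junctions in the endoplasmic reticulum, had 470.7 and 390.9 normalized counts in WT_CTCF and 452.1 and 438.1 in MUT_CTCF cells. Both MUT_CTCF libraries lay between the WT_CTCF libraries. The log2 fold change of Lnp was 0.047 (standard error 0.126, 95% interval -0.21 to 0.30), and leaving out WT_CTCF replicate 2 gave -0.082 and leaving out WT_CTCF replicate 1 gave 0.19. Of the 17 other genes listed for shaping the endoplasmic reticulum, such as the atlastins and reticulons, all were tested and 0 were called in either direction, with 4 at an unadjusted p under 0.05 and a median of 0.022. The fusion GTPase gene Atl2 had a log2 fold change of 0.073 and Rtn4 one of -0.018.

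Mtx2 encodes metaxin 2, which acts with metaxin 1 in building proteins into the outer mitochondrial membrane. It had 2228 and 2099 normalized counts in WT_CTCF and 2071 and 2226 in MUT_CTCF cells. The lines overlapped almost fully, and the log2 fold change was -0.010 (standard error 0.062, edgeR QL adjusted p = 0.968). Its fold was 0.993 with a 95% interval of 0.912 to 1.08. The sign turned when libraries were scaled by library size only (0.0023), without WT_CTCF replicate 1 (0.033) and without MUT_CTCF replicate 1 (0.041). Of 15 related genes of mitochondrial import and membrane architecture, 14 were tested and 0 were called. Mtx1 had 3278 and 3268 counts in WT_CTCF and 2948 and 3070 in MUT_CTCF cells, a log2 fold change of -0.13 (standard error 0.052, edgeR QL adjusted p = 0.201).

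Atf2 encodes a bZIP transcription factor that is phosphorylated by the stress kinases JNK and p38. It had 1886 and 1938 normalized counts in WT_CTCF and 1802 and 1683 in MUT_CTCF cells. Both MUT_CTCF libraries lay below both WT_CTCF libraries, a separation that 44.7% of all tested genes showed in one or the other direction. Atf2 was 0.912 times as high, with a 95% interval of 0.832 to 0.998, and its log2 fold change of -0.13 did not pass (standard error 0.065, edgeR QL adjusted p = 0.320). Without MUT_CTCF replicate 2 it was -0.086. Of 18 related ATF, CREB, Jun and kinase genes, 17 were tested, 2 rose and 0 fell in edgeR's QL test, with a median log2 fold change of 0.014. These were Jund, with a log2 fold change of 0.27 (adjusted p = 0.00390), and Atf3, a gene induced by stress, with 0.61 (adjusted p = 0.0106). Atf7, the closest relative of Atf2 in the list, stood at -0.061 and was not called.

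Chn1 encodes α-chimaerin, a GTPase activating protein for Rac that acts in neurons. It had 1036 and 1018 normalized counts in WT_CTCF and 1126 and 1206 in MUT_CTCF cells. Both MUT_CTCF libraries were the higher. Chn1 had the smallest p of the flanking genes, with a log2 fold change of 0.18 short of a call (standard error 0.081, edgeR QL adjusted p = 0.262). Its fold was 1.14 with a 95% interval of 1.01 to 1.27. Exons of Chn1 share 220 bases with Gm13704 and 533 with Gm13706, both on the opposite strand, and no source says whether counting used strand. Gm13704 had between 12 and 35 counts per library and Gm13706 had 0. Of 15 Rac GTPases and regulators, 13 were tested and 0 were called, with 0 at an unadjusted p under 0.05. Chn2 had a log2 fold change of -0.036. Among 5 neuronal markers, Tubb3 was called (-0.19) and made up most of their summed level, which was 13890 to 13980 normalized counts in WT_CTCF and 12300 to 12370 in MUT_CTCF cells. Map2, Rbfox3, Snap25 and Syt1 were not called, had log2 fold changes of 0.28 to 0.79, and were all highest in MUT_CTCF replicate 1. Their part in the value of Chn1 was not tested.

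Over the 4 libraries, the genes most like Chn1 were Phf16, Cdon and Lpin2, with root mean square distances of 0.0047, 0.00895 and 0.0101 between log2 profiles centred on each gene's mean. These were the nearest of 11591 genes with at least 100 normalized counts, and 4 points define such a likeness only loosely. None of the 3 passed in edgeR's QL test (adjusted p from 0.317 to 0.327).

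Chrna1 encodes the α subunit of the muscle acetylcholine receptor. It had 70.1 and 32.1 normalized counts in WT_CTCF and 31.7 and 35.2 in MUT_CTCF cells. WT_CTCF replicate 1 stood above the other 3 libraries, which lay close together. The log2 fold change of Chrna1 was -0.61 (standard error 0.439, 95% interval -1.49 to 0.27, edgeR QL adjusted p = 0.567). Leaving out WT_CTCF replicate 1 gave 0.060 and leaving out WT_CTCF replicate 2 gave -1.07, and in the latter fit alone Chrna1 met the study's criterion (edgeR QL adjusted p = 0.329). Of 14 related receptor and synapse genes, 11 were tested and 0 were called. The β subunit gene Chrnb1 had 105 and 112 counts in WT_CTCF and 91 and 139 in MUT_CTCF cells, and the δ subunit gene Chrnd had 27 and 39 against 47 and 70, with an adjusted p of 0.337. Of 5 muscle markers Myf5 had 0 counts in all 4 libraries and none of the others averaged above 13.8 normalized counts. Their sum was 36.1 to 45.1 in WT_CTCF and 47.2 to 52.5 in MUT_CTCF cells, and its part in the value of Chrna1 was not tested.

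Wipf1 encodes a partner of WASP that binds actin and is best known from blood cells. It had 288.5 and 290.7 normalized counts in WT_CTCF and 228.0 and 310.5 in MUT_CTCF cells. The MUT_CTCF libraries lay on either side of the WT_CTCF libraries. The log2 fold change of Wipf1 was -0.11 (standard error 0.157, 95% interval -0.42 to 0.21), and leaving out MUT_CTCF replicate 1 gave 0.10 and leaving out the other -0.35. All 22 related genes of actin branching were tested, of which 2 rose and 0 fell in edgeR's QL test, with a median of -0.011. These were Was, the gene of WASP itself (log2 fold change 0.48, adjusted p = 0.0462), and Wasf3 (0.29, adjusted p = 0.0485). Neither was called in DESeq2, where the adjusted p was 0.158 for Was and 0.129 for Wasf3. Of 5 blood cell markers 4 were tested and 0 were called, with sums of 828.9 to 969.5 normalized counts in WT_CTCF and 693.3 to 856.5 in MUT_CTCF libraries, and their part in the value of Wipf1 was not tested.

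Hnrnpa3 encodes a nuclear RNA-binding protein of mRNA processing and transport. It had 15341 and 15054 normalized counts in WT_CTCF and 15105 and 13881 in MUT_CTCF cells. MUT_CTCF replicate 2 was the lowest, while MUT_CTCF replicate 1 lay between the WT_CTCF libraries. The log2 fold change of Hnrnpa3 was -0.068 and did not pass (standard error 0.032, edgeR QL adjusted p = 0.292), with a fold of 0.954 and a 95% interval of 0.912 to 0.997. Leaving out MUT_CTCF replicate 2 gave -0.010 and leaving out MUT_CTCF replicate 1 gave -0.13. Genes of this family have processed copies elsewhere in the genome, so reads could be lost or shared.

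Of 23 other heterogeneous nuclear ribonucleoprotein and related genes, all were tested, and the median log2 fold change was -0.021. In edgeR's QL test 0 rose and 4 fell, beside 3.17% of all tested genes called in either direction. At an unadjusted p under 0.05 there were 9, all lower, beside 15.3% of all tested genes in either direction. The 4 called falls were small. Hnrnpm fell by 0.13 (adjusted p = 0.00633), Hnrnph1 by 0.13 (adjusted p = 0.00816) and the splicing repressor gene Ptbp1 by 0.091 on the log2 scale (adjusted p = 0.0149). The 4th was Hnrnpu (adjusted p = 0.0334). The closest relatives of Hnrnpa3 did not pass after adjustment, with log2 fold changes of -0.075 for Hnrnpa1, -0.064 for Hnrnpa2b1 and -0.016 for Hnrnpa0. Hnrnpa1 and Hnrnpa2b1, but not Hnrnpa0, were among the 9 (edgeR QL unadjusted p = 0.0077 and 0.022).

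Agps encodes the peroxisomal enzyme that forms the ether bond of ether lipids. It had 2733 and 2713 normalized counts in WT_CTCF and 2853 and 2801 in MUT_CTCF cells. Its values in MUT_CTCF cells were all the higher, which made Agps, with Chn1 and Atf2, one of 3 of the 8 tested genes without overlap, beside 44.7% of all tested genes. The log2 fold change of Agps was 0.054 (standard error 0.054, edgeR QL adjusted p = 0.716), and its fold was 1.04 with a 95% interval of 0.963 to 1.12. All 24 related genes of ether lipids, fatty acids and peroxisomes were tested, of which 2 rose and 0 fell in edgeR's QL test, with a median of 0.0047. These were Fasn, the fatty acid synthase gene (log2 fold change 0.18, adjusted p = 1.94e-07), and Agpat3 (0.18, adjusted p = 0.0488), of which DESeq2 called Fasn but not Agpat3 (adjusted p = 0.0920). Gnpat, whose enzyme acts just before Agps, had a log2 fold change of 0.062, and Far1 one of -0.062, and neither passed.

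**Figure D3:**
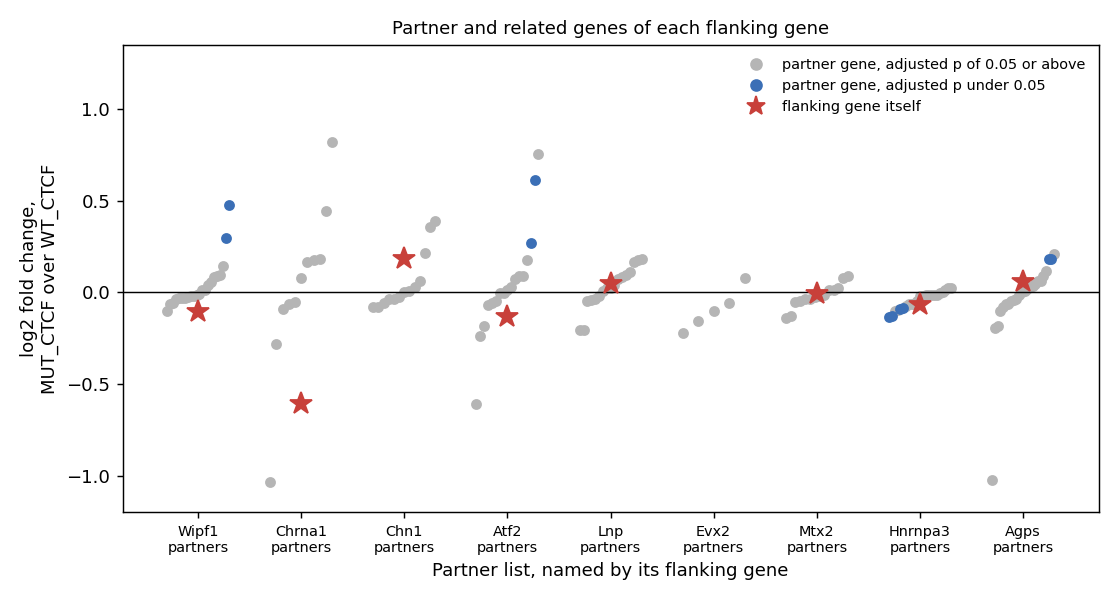
Log2 fold changes of MUT_CTCF over WT_CTCF (vertical axis) for the tested partner genes of each flanking gene, ranked within each list; grey points did not pass, blue points had an adjusted p under 0.05, and the red star is the flanking gene itself. Of the partners 6 passed above 0 and 4 below 0, while no star passed; Evx2 has no star because it was not tested.

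Over all partner genes, 146 of 155 were tested, 6 rose and 4 fell in edgeR's QL test, with a median log2 fold change of -0.016. The 6 that rose belong to the lists of Atf2, Wipf1 and Agps, and the 4 that fell to that of Hnrnpa3. DESeq2 called 7 of these 10 genes. The 10 calls are beside 3.17% of all tested genes. With DESeq2 size factors 10 partner genes passed, with library size only 9, with at least 10 reads in every library 11 and with replicate number as a block 13. When genes of low count were kept 0 of the partner genes passed, and the calls over all genes fell from 515 to 29. Also 0 passed without MUT_CTCF replicate 1 and 0 without MUT_CTCF replicate 2, and 3 and 2 passed without WT_CTCF replicate 1 and 2.

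In the span from Wipf1 to Agps the annotation holds 60 genes, of which 25 had 0 counts in all 4 libraries and 19 were tested. In edgeR's QL test 0 of the 19 were called, beside 3.17% of all tested genes. The smallest adjusted p in that test was 0.103, for the pseudogene Gm13654 between Mtx2 and Hnrnpa3. Its log2 fold change was -0.26 (standard error 0.089). Of the 19, 6 had an unadjusted p under 0.05, beside the 15.3% of all genes. DESeq2 also called 0, but it gave no adjusted p to Chrna1, the tested Hoxd genes and some others of low count. Beside the flanking and Hoxd genes, the coding genes of the span were Atp5g3, Nfe2l2 and Gm14396, the last with 0 counts. Atp5g3, a gene of the mitochondrial ATP synthase between Atf2 and Lnp, had 16531 and 16632 counts in WT_CTCF and 15944 and 15697 in MUT_CTCF cells. Its MUT_CTCF values were the lower, and the log2 fold change, -0.073, fell short of a call (standard error 0.029, edgeR QL adjusted p = 0.183). Nfe2l2, which encodes NRF2 and lies next to Hnrnpa3, had 2850 and 2934 counts against 3194 and 3087. The difference, 0.11 on the log2 scale, was not called either (standard error 0.052, edgeR QL adjusted p = 0.287). Just outside the span, Gpr155 beyond Wipf1 had a log2 fold change of 0.82 on 19 to 54 counts per library (adjusted p = 0.459) and Ttc30b beyond Agps one of 0.19 (adjusted p = 0.800).

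**Figure D4:**
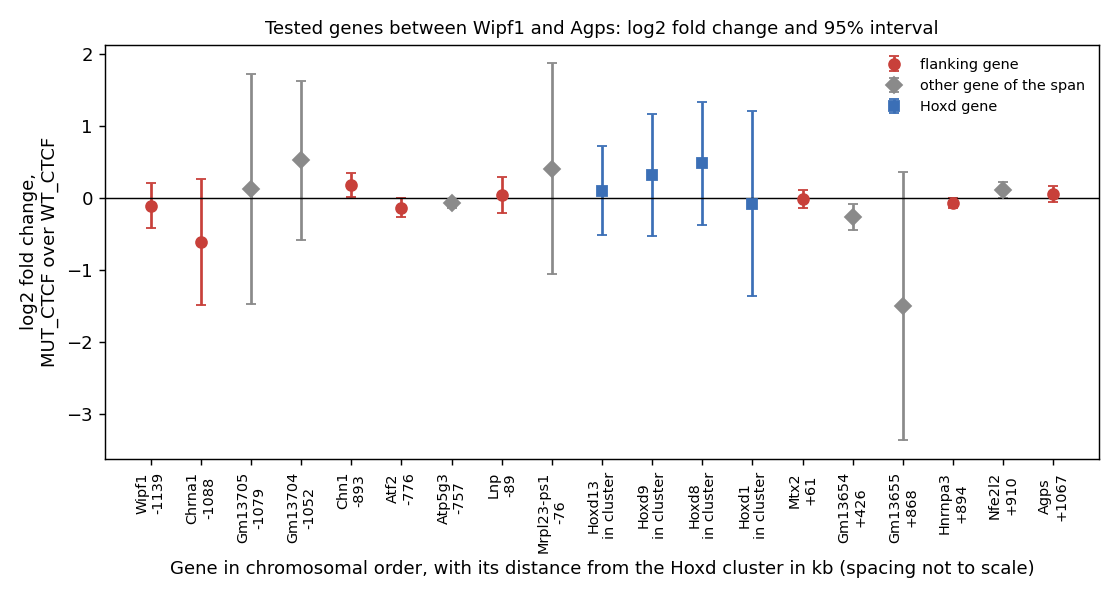
Log2 fold change of MUT_CTCF over WT_CTCF (vertical axis; whiskers, 95% interval of edgeR's fit) for the 19 tested genes from Wipf1 to Agps in chromosomal order, with the distance from the Hoxd cluster in kb under each name; red circles are flanking genes, blue squares Hoxd genes and grey diamonds other genes. Intervals are narrow for Hnrnpa3 (-0.13 to -0.0044) and wide for Chrna1 (-1.49 to 0.27) and for the Hoxd genes.

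By side, the 5 tested genes on the Hoxd13 side had a median of -0.11 on the log2 scale and the 3 on the Hoxd1 side one of -0.010. With this few genes the sides were not compared by a test. Among the 5 flanking genes with a mean of at least 1000 normalized counts (Hnrnpa3, Agps, Mtx2, Atf2 and Chn1), the 95% intervals of the folds all lay between 0.832 and 1.27. For Lnp and Wipf1 they reached from 0.747 to 1.23, and for Chrna1 from 0.356 to 1.21.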

How the data were processed

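RNA-seq was made from 4 libraries, 2 WT_CTCF and 2 MUT_CTCF. Per the study's methods and processing notes, the authors trimmed reads with Trim Galore 0.4.4 (quality 20, length 50 nt), aligned them to mm9 with STAR, counted uniquely mapped reads per gene with HTSeq-count 0.9.1 and deposited these raw counts; the strand setting is not given in the sources used here. A second deposited table holds the authors' own edgeR comparison and was not used.

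GENCODE M1 (NCBIM37, mm9) named 37205 of the 37620 identifiers. The whole table was filtered by filterByExpr (minimum 10 counts), scaled by TMM and fitted with edgeR 4.0.16 (R 4.3.3; glmQLFit, glmQLFTest) on the line, with Benjamini-Hochberg adjustment over 16264 genes. Standard errors are the log2 fold change divided by the root of F. Replicates are the study's biological replicates of each clone. The p-values therefore rest on the spread between samples of the same clone and do not cover the spread between clones. DESeq2 1.42.0 and the other alternatives are given at the end, and fits were checked on simulated counts.

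The members and lists were chosen with earlier results of these data known. Every member, Hoxd gene and coding gene of the span with counts enough to be tested was named, with the called genes of each partner list (at most 3 by smallest p), the coding neighbours just outside the span and the 3 genes most like Chn1. Hnrnpu, Gm13654 and the uncalled relatives named beside each list were chosen after their values were seen. Symbols with several identifiers took the one with most reads. Older symbols were matched for Pex2, Map2 and Spi1.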

Additional observations from a re-analysis of the deposited data

How the results depend on the processing

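No flanking gene, Hoxd gene or gene of the span had an adjusted p under 0.05 in the main fit or in any of the 10 alternatives. DESeq2 gave no adjusted p to Chrna1, the tested Hoxd genes and some other genes of low count in the span, so it could not call them. Of the 80 alternative log2 fold changes of the 8 tested genes, 74 kept their direction and 6 turned. Mtx2 turned with library size only (0.0023), and leaving out each library in turn gave ranges of -0.064 to 0.041 for Mtx2, -0.082 to 0.19 for Lnp, -0.35 to 0.10 for Wipf1 and -1.07 to 0.060 for Chrna1. The study's criterion was met by 0 to 1 flanking genes when a library was left out, the 1 being Chrna1 without WT_CTCF replicate 2. Partner gene calls were 10 in the main fit, 7 in DESeq2, 0 with no filter on low counts and 0 to 3 with a library left out, where the lone library of a line is assumed to vary like the others. Over all genes the 515 calls became 302 in DESeq2 and 29 with no filter, and 0 without either MUT_CTCF library, 193 without WT_CTCF replicate 1 and 242 without WT_CTCF replicate 2. The labels do not say whether libraries with the same replicate number were made together. The deviations of the replicates numbered 1 correlated by -0.020 across genes, which cannot decide this with so few libraries per line. With the replicate numbers as a block 0 flanking genes were called, with a smallest adjusted p of 0.184, and the calls over all genes were 698. Levels near 30 counts, as for Chrna1, limit what could be detected.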
